A study of Mus musculus with 14 samples.

Results

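The 10 genes described here encode polypeptide N-acetylgalactosaminyltransferases (GalNAc-transferases), the Golgi enzymes that attach the first sugar of mucin-type O-glycans. They were taken by symbol (Galnt1, Galnt2, Galnt3, Galnt4, Galnt5, Galnt6, Galnt7, Galnt10, Galnt11 and Galnt12), and all 10 were found among the 36536 genes counted in each of 14 mouse RNA-sequencing libraries. For each of the 2 tissues, colon and ileum, 3 libraries hold live (7AAD-negative) cells sorted by GFP from Atoh1GFP/GFP crypts, where the ATOH1 protein is fused to GFP and remains functional (GFP cells). Crypts of Atoh1lox/lox;VilCreERT2 mice, in which an inducible recombinase driven by the villin promoter removes Atoh1 from intestinal epithelium, gave 2 libraries per tissue (KO crypts). Littermates that were Atoh1lox/WT;VilCreERT2 gave 2 more per tissue (WT crypts). They are called WT in the labels, although they carry the recombinase, as KO mice do. They have 1 floxed allele where KO mice have 2, so 1 Atoh1 copy is open to the same deletion. The crypt mice were 6 to 8 weeks old. The labels do not say whether libraries came from separate animals, so p-values measure the spread between these libraries.

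Mucin-type O-glycosylation starts when a GalNAc-transferase moves N-acetylgalactosamine from UDP-GalNAc to a serine or threonine, after which other enzymes build the core and the capped chain. Some isoforms act on bare peptide, while others prefer peptide that already carries GalNAc and fill in the remaining sites. Goblet cells of the intestine make the gel-forming mucin MUC2, whose serine- and threonine-rich domains carry dense O-glycans, and ATOH1 is the transcription factor required for goblet, Paneth and enteroendocrine cells. The comparisons ask which isoforms are high in ATOH1-positive cells and which fall when Atoh1 is deleted.

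Promoter windows, from 250 bases before to 50 after the start site, were found for 6 of the 10 genes in the RefSeq table of build GRCm38.p6. They are shown for Galnt5, whose mRNA differed most between groups, and for 3 other isoforms that were higher in sorted cells, Galnt3, Galnt7 and Galnt10. Capitals mark every E-box, the sequence CANNTG that basic helix-loop-helix factors such as ATOH1 can bind, which reads CANNTG on both strands; CAGCTG is 1 form of it. The Galnt5 window lies at chr2:57997905-57998204 on the plus strand and the Galnt3 window at chr2:66124744-66125043 on the minus strand. The Galnt7 window lies at chr8:57653006-57653305 on the minus strand and the Galnt10 window at chr11:57645192-57645491 on the plus strand.
Galnt5: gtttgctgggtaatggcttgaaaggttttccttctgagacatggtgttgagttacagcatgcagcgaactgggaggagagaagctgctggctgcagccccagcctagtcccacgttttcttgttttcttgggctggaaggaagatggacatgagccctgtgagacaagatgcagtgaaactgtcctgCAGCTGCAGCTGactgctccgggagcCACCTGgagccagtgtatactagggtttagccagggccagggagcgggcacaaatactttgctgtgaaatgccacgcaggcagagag
Galnt3: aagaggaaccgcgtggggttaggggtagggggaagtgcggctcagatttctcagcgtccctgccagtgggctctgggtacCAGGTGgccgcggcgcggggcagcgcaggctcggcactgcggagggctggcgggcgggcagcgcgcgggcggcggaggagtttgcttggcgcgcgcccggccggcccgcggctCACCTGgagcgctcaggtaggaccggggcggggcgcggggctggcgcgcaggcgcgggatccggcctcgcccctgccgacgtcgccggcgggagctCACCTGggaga
Galnt7: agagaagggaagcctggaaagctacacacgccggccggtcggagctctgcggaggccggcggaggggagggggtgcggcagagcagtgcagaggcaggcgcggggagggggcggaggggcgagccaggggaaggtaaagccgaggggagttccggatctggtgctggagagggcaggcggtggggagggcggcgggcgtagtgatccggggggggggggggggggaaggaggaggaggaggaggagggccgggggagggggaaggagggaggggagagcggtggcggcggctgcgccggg
Galnt10: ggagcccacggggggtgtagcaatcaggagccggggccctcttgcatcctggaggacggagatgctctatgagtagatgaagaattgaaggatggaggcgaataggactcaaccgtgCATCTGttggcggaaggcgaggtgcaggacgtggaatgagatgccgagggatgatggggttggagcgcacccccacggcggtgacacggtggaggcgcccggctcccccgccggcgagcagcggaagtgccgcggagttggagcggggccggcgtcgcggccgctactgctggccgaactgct
The Galnt5 window held 3 E-boxes, of which 2 were CAGCTG and stood back to back, with first bases 63 and 57 bases before the start site. CAGCTG occurred in 16.3% of all 32851 promoter windows of this length, and any CANNTG in 72.3%. The Galnt3 window held 3 E-boxes, the Galnt10 window 1 and the Galnt7 window 0, none of them CAGCTG. Of the other windows, 1 of 2 for Galnt6 held 2 E-boxes and neither window of Galnt11 held any. These letters describe the windows and were not tested for binding.

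The libraries held 7478418 to 12991891 gene counts. Mitochondrial ribosomal RNA made up 30.0 to 44.9% of gene counts in GFP cells and 0.136 to 0.219% in KO and WT crypts. Levels below are CPM, which are counts scaled to the gene total of the library times its TMM factor over all 14 libraries. Atoh1 stood at 195 to 323 CPM in GFP cells, 0.526 to 5.90 CPM in KO crypts and 39.55 to 62.6 CPM in WT crypts. The 8 goblet markers summed to 64500 to 69960 CPM in colon GFP cells, 1802 to 1881 CPM in colon KO crypts and 10200 to 21780 CPM in colon WT crypts. In ileum the goblet sums were 46630 to 133300, 223 to 573 and 11230 to 15380 CPM in the same order of groups, and the 7 Paneth markers summed to 53070 to 72290, 620 to 1382 and 8553 to 30090 CPM. Against WT crypts, edgeR called 5 of the 8 goblet markers higher in colon GFP cells and 7 in ileum, and 0 lower. Fcgbp and Clca1 averaged 2729 and 4171 CPM in colon GFP cells, below 5055 and 6014 CPM in colon WT crypts. Of the 7 Paneth markers, 1 was called higher in ileum GFP cells. The 8 absorptive markers summed to 911 to 3023 CPM in GFP cells, 8143 to 9024 CPM in KO crypts and 3756 to 9682 CPM in WT crypts. The 6 immune and 6 stromal markers summed to at most 27.3 and 6.60 CPM in GFP cells, against 101 to 144 and 32.3 to 68.4 CPM in KO crypts and 35.6 to 518 and 28.8 to 86.2 CPM in WT crypts. The 7 enteroendocrine markers summed to 20.0 to 62.6 CPM in GFP cells, 35.0 to 121 CPM in KO crypts and 157 to 181 CPM in WT crypts. None of these markers was at 0 over all libraries of a group. The 5 tuft markers summed to 6.27 to 19.3 CPM in GFP cells, 3.36 to 13.8 CPM in KO crypts and 12.6 to 178 CPM in WT crypts. Of them, 1 was at 0 in ileum KO crypts. The 4 stem markers summed to 58.8 to 81.0, 83.6 to 85.7 and 55.2 to 57.3 CPM in colon GFP cells, KO crypts and WT crypts. In ileum the stem sums were 390 to 1280, 429 to 871 and 1278 to 1397 CPM in the same order. The part of these cell types in the differences below was not tested. With mitochondrial genes left out of the scaling, the same number of isoforms was called in each of the 11 comparisons. Reads outside genes made up 9.30 to 13.2% of uniquely placed reads in the crypt libraries. In ileum GFP 1 they made up 52.3%, against 24.9 to 31.9% in the other 5 GFP libraries. Results for ileum GFP cells are also given without it where they change.

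In GFP cells 5 of the 10 isoforms were higher than in WT crypts in colon (Galnt5, Galnt6, Galnt7, Galnt10 and Galnt12) and 6 of 10 in ileum (Galnt3, Galnt4, Galnt5, Galnt6, Galnt7 and Galnt12). Galnt1 was lower in GFP cells in both tissues, and Galnt2 and Galnt11 were lower in ileum. Against this, 22.3% of the 15274 genes tested were called higher and 23.6% lower in colon, and 24.6% higher and 28.1% lower in ileum. Calls are from the quasi-likelihood test of edgeR at a Benjamini-Hochberg adjusted p under 0.05 over all genes tested. All GFP libraries lay above all WT libraries for 7 isoforms in colon and 5 in ileum, and below them for 3 in each tissue; of all genes tested, 32.5 and 30.9% lay above and 34.6 and 34% below. The median log2 fold of the 10 isoforms was 0.74 in colon and 0.95 in ileum, beside medians of 0.01 and −0.06 over all genes tested. Sorting, genotype, the share of mitochondrial ribosomal RNA and the share of reads outside genes all differ between GFP cells and crypts. They cannot be told apart from cell type, and an age is listed only for the crypt mice. Galnt5, Galnt6, Galnt7 and Galnt12 were called higher in the sorted cells of both tissues, Galnt10 in those of colon and Galnt3 and Galnt4 in those of ileum. Without colon WT 1, Galnt7 and Galnt1 kept their colon calls. Galnt5, Galnt6, Galnt10 and Galnt12 were then not called, at log2 folds of 1.47, 0.85, 1.04 and 0.72. That fit leaves 1 colon WT library, and fewer of all genes tested were called as well. In ileum, Galnt6 was not called under 6 of 12 alternatives. A call in 1 tissue alone does not show a difference between tissues. The difference between the 2 effects was called for 0 of the 10 isoforms with edgeR (lowest adjusted p = 0.104, for Galnt2), 2 had an unadjusted p under 0.05 (Galnt2 and Galnt12), and DESeq2 called 1 (Galnt2). Of all 15274 genes tested, 2.19% were called, and 2636 had an unadjusted edgeR p under 0.05. Without ileum GFP 1 the difference was called for Galnt2 and Galnt12 (edgeR adjusted p = 0.0487 and 0.0497). Over all genes it was then called for 672 of 15099, against 335 with ileum GFP 1.

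**Figure D1:**
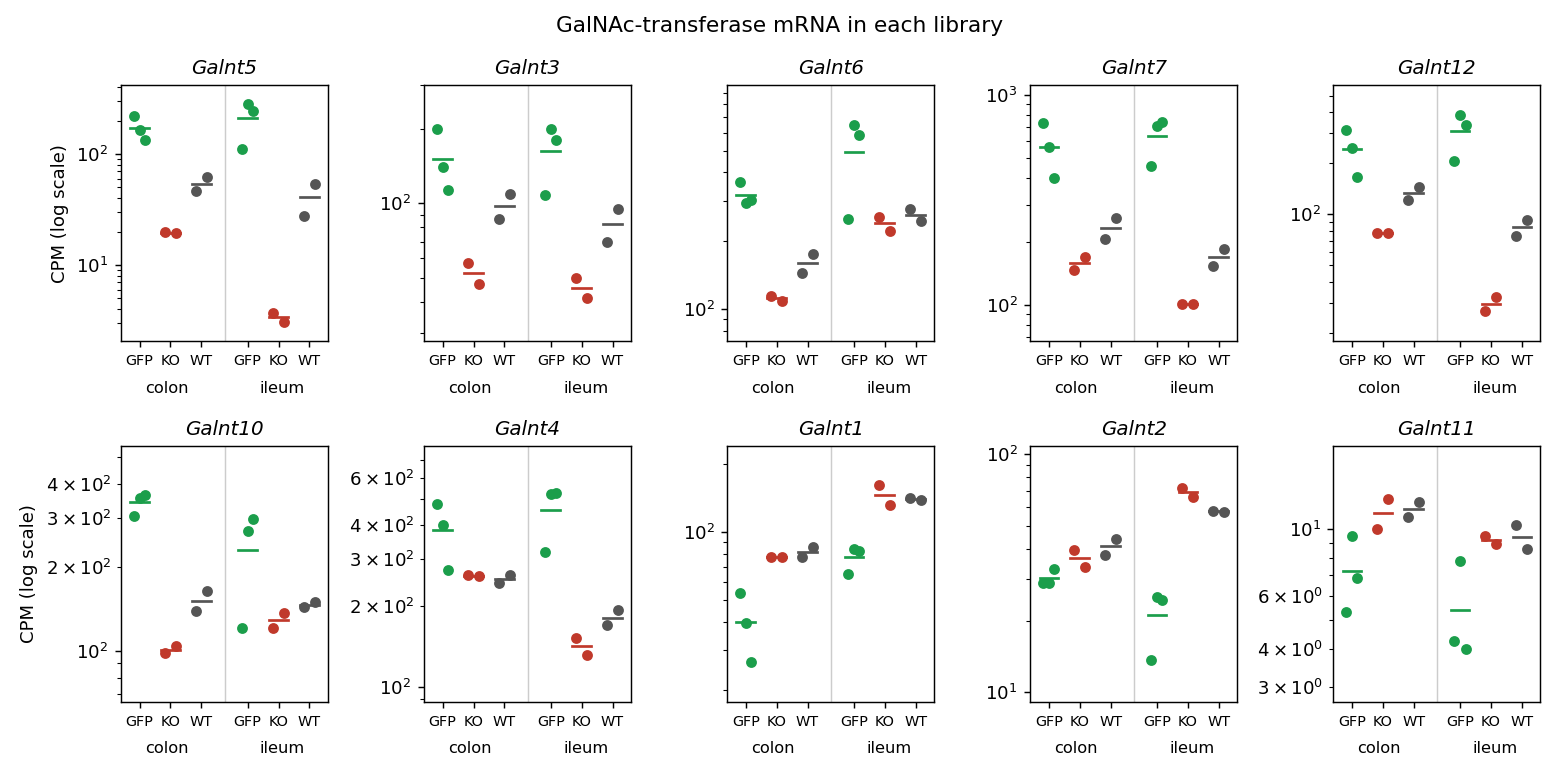
CPM of the 10 GalNAc-transferase genes (log scale) in each library, with points for libraries and bars for group means, for GFP cells, KO crypts and WT crypts of colon and ileum, each panel having its own axis. The ileum KO points of Galnt5, at 3.67 and 3.08 CPM, lie furthest below those of the other groups, and Galnt1 and Galnt2 are lower in GFP cells than in crypts.

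Apart from the 4 isoforms grouped below as glycopeptide-preferring, Galnt3, Galnt5 and Galnt6 were called higher in GFP cells in at least 1 tissue. Galnt1, Galnt2 and Galnt11 were called lower in at least 1, and the lower calls, 1 of 10 isoforms in colon and 3 of 10 in ileum, were no more frequent than over all genes in colon and close to that share in ileum. Galnt5, described first in rat and expressed in few tissues, stood at 218, 165 and 133 CPM in colon GFP cells, against 19.94 and 19.25 CPM in colon KO crypts and 46.8 and 61.4 CPM in colon WT crypts. In ileum it stood at 112, 279 and 243 CPM in GFP cells, 3.67 and 3.08 CPM in KO crypts and 27.6 and 54.2 CPM in WT crypts. In both tissues every GFP library was above every WT library and every WT library above every KO library. Galnt5 was 3.18-fold higher in GFP cells than in WT crypts of colon (log2 fold 1.67, SE 0.38, edgeR adjusted p = 0.00363) and 5.18-fold higher in ileum (log2 fold 2.37, SE 0.39, edgeR adjusted p = 0.000341). In KO crypts of ileum it fell 11.8-fold against WT crypts (log2 fold −3.56, SE 0.37, edgeR adjusted p = 0.0142). In KO crypts of colon it was 2.79-fold lower in the fit but did not pass (log2 fold −1.48, SE 0.31, edgeR adjusted p = 0.228). In these bulk libraries, fewer cells of a type and less RNA per cell cannot be told apart. The colon difference between GFP cells and WT crypts lost its call without colon WT 1 (edgeR adjusted p = 0.0553).

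Galnt3 encodes the enzyme that O-glycosylates the hormone FGF23 and so protects it from cleavage. It stood at 200, 140 and 113 CPM in colon GFP cells, 57.6 and 47.2 CPM in colon KO crypts and 86.6 and 109 CPM in colon WT crypts. In ileum the levels were 108, 200 and 180 CPM in GFP cells, 49.8 and 41.6 CPM in KO crypts and 69.8 and 94.8 CPM in WT crypts. The order was GFP, WT, KO without overlap in both tissues, although colon GFP 3 and colon WT 2 were close. The rise in GFP cells over WT crypts passed in ileum (log2 fold 0.98, SE 0.28, edgeR adjusted p = 0.00986) and not in colon (log2 fold 0.62, SE 0.28, edgeR adjusted p = 0.0806), where it passed without colon GFP 3 (0.0366) and with no filter on low counts (0.0438). Galnt3 was not called in ileum without ileum WT 1 (edgeR adjusted p = 0.105). KO crypts against WT crypts gave log2 folds of −0.91 in colon and −0.82 in ileum (edgeR adjusted p = 0.229 and 0.141).

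Galnt6 is the closest relative of Galnt3 in the family. It stood at 362, 294 and 302 CPM in colon GFP cells, 115 and 108 CPM in colon KO crypts and 144 and 175 CPM in colon WT crypts. The ileum levels were 249, 649 and 585 CPM in GFP cells, 255 and 221 CPM in KO crypts and 276 and 245 CPM in WT crypts. The ileum groups overlapped: ileum GFP 1 lay among the crypt libraries, and the other 2 GFP libraries were far above them. Galnt6 was 2.00-fold higher in GFP cells than in WT crypts of colon (edgeR adjusted p = 0.0159) and 1.90-fold higher in ileum (edgeR adjusted p = 0.0197). Without ileum GFP 1 the ileum log2 fold was 1.25 (edgeR adjusted p = 5.93e-05). In colon it was not called when colon WT 1 or colon WT 2 was left out (edgeR adjusted p = 0.141 and 0.0565). In ileum it was not called without ileum WT 1, ileum WT 2, ileum GFP 2 or ileum GFP 3 (edgeR adjusted p = 0.0638 to 0.108). In KO crypts against WT crypts the log2 fold was −0.53 in colon (SE 0.14, edgeR adjusted p = 0.304) and −0.09 in ileum (SE 0.13, edgeR adjusted p = 0.819).

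Galnt1 and Galnt2, which are expressed in most tissues, were not highest in GFP cells. Galnt1 stood at 53.9, 39.7 and 26.4 CPM in colon GFP cells, 77.7 and 77.2 CPM in colon KO crypts and 77.6 and 86.1 CPM in colon WT crypts. Its ileum levels were 65.4, 83.8 and 82.8 CPM in GFP cells, 161 and 132 CPM in KO crypts and 142 and 140 CPM in WT crypts. All GFP libraries were below all crypt libraries of the same tissue, and KO and WT libraries overlapped. Galnt1 was lower in GFP cells than in WT crypts of colon (log2 fold −1.03, SE 0.22, edgeR adjusted p = 0.00214) and of ileum (log2 fold −0.86, SE 0.22, edgeR adjusted p = 0.00498). Galnt2, known for acting on proteins of lipid metabolism in mice and humans, stood at 28.7, 28.9 and 33.0 CPM in colon GFP cells, 39.5 and 33.6 CPM in colon KO crypts and 37.8 and 44.2 CPM in colon WT crypts. In ileum it stood at 13.6, 25.2 and 24.4 CPM in GFP cells, 72.6 and 66.1 CPM in KO crypts and 57.7 and 57.3 CPM in WT crypts. The ileum GFP libraries were thus all well below the crypt libraries, and both ileum KO libraries were above both ileum WT libraries. Galnt2 fell 2.71-fold in GFP cells against WT crypts of ileum (log2 fold −1.44, SE 0.21, edgeR adjusted p = 7.69e-05), and its colon difference did not pass (log2 fold −0.44, SE 0.21, edgeR adjusted p = 0.0952). KO crypts against WT crypts of ileum gave a log2 fold of 0.30 for Galnt2 (SE 0.12, edgeR adjusted p = 0.343).

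Galnt11, an enzyme known for acting on LDL-receptor-related proteins, was the lowest of the 10 by CPM in every group but ileum KO crypts, at 5.32, 9.46 and 6.87 CPM in colon GFP cells, 9.97 and 12.6 CPM in colon KO crypts and 10.9 and 12.3 CPM in colon WT crypts. The ileum libraries held 4.26, 7.83 and 3.998 CPM in GFP cells, 9.45 and 8.87 CPM in KO crypts and 10.3 and 8.56 CPM in WT crypts. All GFP libraries were below the crypt libraries of their tissue, and KO and WT crypts overlapped. The fall in ileum GFP cells against WT crypts passed (log2 fold −0.80, SE 0.31, edgeR adjusted p = 0.0413), but not without ileum GFP 1, ileum GFP 3, ileum WT 1 or ileum WT 2 (edgeR adjusted p = 0.0576 to 0.184), nor with DESeq2 (adjusted p = 0.0547). The colon difference did not pass (log2 fold −0.69, SE 0.30, edgeR adjusted p = 0.0722).

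Galnt4, Galnt7, Galnt10 and Galnt12 are grouped here as glycopeptide-preferring, for a preference for peptide that already carries GalNAc. The grouping does not exclude action on bare peptide. Galnt7 had the highest mean CPM of the 10 in GFP cells, at 729, 562 and 403 CPM in colon GFP cells, 147 and 169 CPM in colon KO crypts and 206 and 258 CPM in colon WT crypts. In ileum the values were 458, 706 and 741 CPM in GFP cells, 101.2 and 100.7 CPM in KO crypts and 154 and 185 CPM in WT crypts. Every GFP library was above every WT library and every WT library above every KO library in both tissues. Galnt7 was 2.43-fold higher in GFP cells than in WT crypts of colon (log2 fold 1.28, SE 0.26, edgeR adjusted p = 0.00147) and 3.75-fold higher in ileum (log2 fold 1.91, SE 0.27, edgeR adjusted p = 6.58e-05). Both calls held under each of the 12 alternatives run for each, the only isoform besides Galnt1 with that result in this comparison in both tissues. KO crypts against WT crypts gave log2 folds of −0.57 in colon (SE 0.15, edgeR adjusted p = 0.35) and −0.71 in ileum (SE 0.15, edgeR adjusted p = 0.0943).

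Galnt12, an isoform of digestive organs, stood at 314, 247 and 166 CPM in colon GFP cells, 78.16 and 78.04 CPM in colon KO crypts and 122 and 145 CPM in colon WT crypts. Ileum levels were 206, 385 and 337 CPM in GFP cells, 26.9 and 32.6 CPM in KO crypts and 75.0 and 93.2 CPM in WT crypts. The groups did not overlap in either tissue, with KO crypts the lowest. Galnt12 fell 2.76-fold in ileum KO crypts against WT crypts (log2 fold −1.47, SE 0.16, edgeR adjusted p = 0.0134) and was 1.72-fold lower in colon KO crypts without passing (log2 fold −0.79, SE 0.15, edgeR adjusted p = 0.175). It was 3.68-fold higher in GFP cells than in WT crypts of ileum (log2 fold 1.88, SE 0.29, edgeR adjusted p = 0.000121) and 1.81-fold higher in colon (log2 fold 0.86, SE 0.28, edgeR adjusted p = 0.0207). Without colon GFP 1, colon WT 1 or colon WT 2, Galnt12 was not called in colon (edgeR adjusted p = 0.0824, 0.165 and 0.0677).

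Galnt10, an enzyme closely related to Galnt7, stood at 305, 355 and 365 CPM in colon GFP cells, 98.0 and 104 CPM in colon KO crypts and 139 and 164 CPM in colon WT crypts. In ileum it stood at 121, 269 and 299 CPM in GFP cells, 121 and 137 CPM in KO crypts and 144 and 149 CPM in WT crypts. In colon the groups did not overlap, whereas in ileum GFP 1 lay with the crypt libraries. Galnt10 was 2.25-fold higher in GFP cells than in WT crypts of colon (log2 fold 1.17, SE 0.28, edgeR adjusted p = 0.00438), a call lost without colon WT 1 (edgeR adjusted p = 0.0601). In ileum the log2 fold of 0.65 did not pass (SE 0.28, edgeR adjusted p = 0.0638) but passed without ileum GFP 1 (log2 fold 0.96, edgeR adjusted p = 0.000189). KO crypts against WT crypts gave log2 folds of −0.60 in colon (edgeR adjusted p = 0.176) and −0.15 in ileum (edgeR adjusted p = 0.64).

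Galnt4, a close relative of Galnt12, stood at 479, 400 and 272 CPM in colon GFP cells, 260 and 258 CPM in colon KO crypts and 243 and 260 CPM in colon WT crypts. Levels in ileum were 319, 520 and 527 CPM in GFP cells, 153 and 132 CPM in KO crypts and 170 and 193 CPM in WT crypts. KO and WT crypts overlapped in colon, and in ileum both KO libraries were below both WT libraries. Galnt4 was 2.51-fold higher in GFP cells than in WT crypts of ileum (log2 fold 1.33, SE 0.26, edgeR adjusted p = 0.000706), and its colon difference did not pass (log2 fold 0.61, SE 0.25, edgeR adjusted p = 0.0591) except without colon GFP 3 or with DESeq2. KO crypts against WT crypts gave log2 folds of 0.03 in colon and −0.32 in ileum (edgeR adjusted p = 0.985 and 0.308). Galnt4 shares 8.3% of its exon bases with Poc1b on the same strand in GENCODE M21, so reads there could be assigned to either gene or left out. Exons on the opposite strand overlap 5.3% of the exon bases of Galnt5 (Ermn) and 11.4% of those of Galnt6 (Galnt6os), 4.5% of Galnt11 (E130116L18Rik) and 3.6% of Galnt2 (1810008B01Rik). Without a stated strand setting, those reads cannot be told apart.

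After deletion of Atoh1, 2 of the 10 isoforms were called in ileum, both lower (Galnt5 and Galnt12), and 0 of 10 in colon. In colon 6 had an unadjusted edgeR p under 0.05, as did 1108 of all 14415 genes tested. In ileum Galnt2, Galnt3, Galnt4, Galnt5, Galnt7 and Galnt12 had one, Galnt2 being higher, as did 1929 of all genes tested. Over all 14415 genes tested, 157 were called lower (1.09%) and 19 higher (0.132%) in ileum KO crypts, and 21 lower (0.146%) and 1 higher (0.00694%) in colon KO crypts. In colon, DESeq2 called 4 of the 10 isoforms lower (Galnt3, Galnt5, Galnt10 and Galnt12), and 143 of 23114 genes lower in all. In ileum DESeq2 called Galnt3 and Galnt7 lower beside Galnt5 and Galnt12, and 406 genes lower in all. The 2 ileum calls were lost without ileum KO 1, at log2 folds of −3.69 for Galnt5 and −1.33 for Galnt12. They were also lost without ileum KO 2 (−3.44 and −1.61). Each of these fits leaves 1 ileum KO library, and fewer of all genes tested were called as well. Without ileum WT 1, which leaves 1 ileum WT library, Galnt3 and Galnt7 were called in addition. Over all genes, the calls without ileum WT 1 numbered 1403 of 14917, against 176 of 14415 with it. Both KO libraries lay below both WT libraries for 6 isoforms in colon (Galnt3, Galnt5, Galnt6, Galnt7, Galnt10 and Galnt12) and 6 in ileum (Galnt3, Galnt4, Galnt5, Galnt7, Galnt10 and Galnt12), as 20.1 and 21.9% of all genes tested did. They lay above for 0 isoforms in colon and for Galnt2 in ileum, as 22.5 and 18% of all genes did. The median log2 fold of the 10 was −0.55 in colon and −0.23 in ileum, beside 0.01 in each over all genes tested. The interaction test for a different knockout effect in the 2 tissues called 0 of 10 isoforms with edgeR and 0.00694% of all genes tested. At an unadjusted edgeR p under 0.05 there were 4 isoforms and 563 of all 14415 genes. For Galnt5 the colon fold minus the ileum fold was 2.09 on the log2 scale, the ileum fold being the more negative (SE 0.48, edgeR adjusted p = 0.91), and it was called with DESeq2 (adjusted p = 0.00525) and without ileum WT 1 (edgeR adjusted p = 0.00394). Atoh1 mRNA was 5.201 and 5.90 CPM in colon KO crypts and 1.015 and 0.526 CPM in ileum KO crypts, and its part in the Galnt5 difference was not tested.

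**Figure D2:**
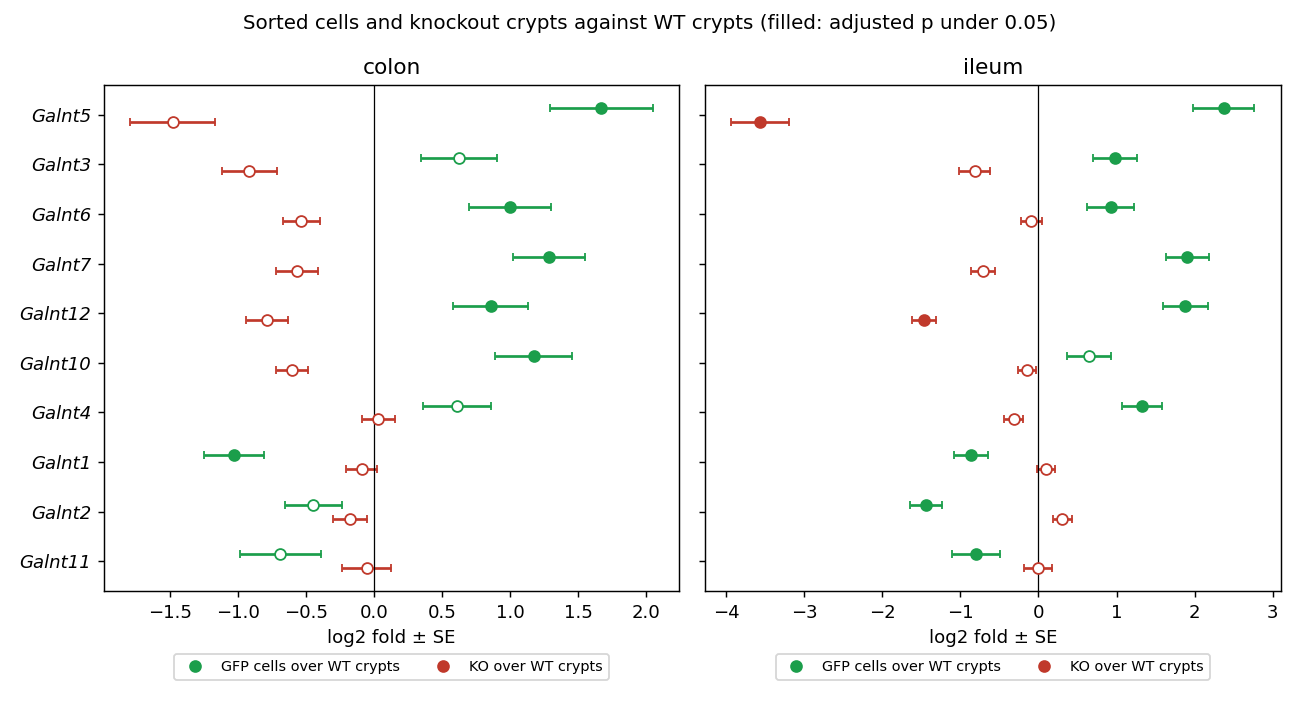
Log2 folds (points) and SE (bars) of the 10 isoforms for GFP cells over WT crypts and KO crypts over WT crypts, with colon at left and ileum at right, the 2 panels having different axes, and filled points for an adjusted p under 0.05. In ileum Galnt5 has the largest differences in both comparisons, at 2.37 and −3.56, and the 2 comparisons share the WT libraries.

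GFP cells were also set against KO crypts, the group with the lowest goblet marker sums. There 6 isoforms were higher and 1 lower in colon, and 7 were higher and 3 lower in ileum, while 23.9 and 27.5% of all genes tested were called higher and 25 and 27.9% lower. Galnt5 was 8.79-fold higher in GFP cells than in KO crypts of colon (log2 fold 3.14, SE 0.41, edgeR adjusted p = 6.04e-05) and 62.5-fold higher in ileum (log2 fold 5.97, SE 0.49, edgeR adjusted p = 1.18e-06). Galnt12 was 3.10-fold higher in colon (edgeR adjusted p = 0.000354) and 10.4-fold higher in ileum (edgeR adjusted p = 1.18e-06). Galnt7 was 3.57-fold and 6.29-fold higher (edgeR adjusted p = 8.64e-05 and 3.88e-06), and Galnt3 was 2.88-fold and 3.56-fold higher (edgeR adjusted p = 0.000695 and 0.000145). Galnt4 was called higher in ileum (3.20-fold, edgeR adjusted p = 0.000101) but not in colon (1.48-fold, edgeR adjusted p = 0.0741). In ileum the calls of Galnt6 (without ileum KO 2), Galnt10 and Galnt11 (each without 4 single libraries) were not kept when a library was left out, with edgeR adjusted p up to 0.161. These comparisons share the GFP libraries with those against WT crypts and the KO libraries with those of the knockout.

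Levels were compared between isoforms per kilobase of annotated exon, a scale on which gene length does not count. In colon GFP cells Galnt7 and Galnt12 led, at 107.5 ± 31.1 and 105.8 ± 32.3 CPM per kilobase (SD, n = 3), followed by Galnt6 and Galnt4 with overlapping library ranges. In ileum GFP cells Galnt12, Galnt6 and Galnt7 led at 135, 128 and 121 CPM per kilobase, again overlapping. In ileum KO crypts the order differed, with Galnt6 first at 61.55 CPM per kilobase, Galnt12 ranked 7 at 12.99 and Galnt5 last at 0.757. In ileum WT crypts Galnt6 was also first, at 67.2 CPM per kilobase, above Galnt12 at 36.75 and Galnt4 at 35.6, which overlapped. In colon KO crypts Galnt4 was first at 51.0 CPM per kilobase, and in colon WT crypts Galnt12 was first at 58.4, above Galnt4 at 49.4.

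The summed level of the 10 isoforms was 627, 514 and 411 CPM per kilobase in colon GFP cells, 202 and 201 in colon KO crypts and 256 and 303 in colon WT crypts. In ileum it was 390, 748 and 710 CPM per kilobase in GFP cells, 207 and 190 in KO crypts and 254 and 276 in WT crypts. GFP libraries were the highest and KO libraries the lowest in both tissues, with no overlap. Galnt1 held 1.17 to 1.56% of the sum in colon GFP cells, 6.95 to 6.98% in colon KO crypts and 5.15 to 5.49% in colon WT crypts. In ileum it held 2.03 to 3.04% in GFP cells, 12.6 to 14.1% in KO crypts and 9.17 to 10.1% in WT crypts. Galnt5 held 7.21 to 7.81% in colon GFP cells, 2.14 to 2.21% in colon KO crypts and 4.1 to 4.54% in colon WT crypts. In ileum it held 6.44 to 8.36% in GFP cells, 0.363 to 0.398% in KO crypts and 2.44 to 4.4% in WT crypts. The 4 glycopeptide-preferring isoforms together held 64.2 to 68.8% in colon GFP cells, 64.3 to 66.9% in colon KO crypts and 63.1 to 64.0% in colon WT crypts. In ileum they held 60.1 to 66.7% in GFP cells, 39.3 to 43.2% in KO crypts and 47.1 to 50.3% in WT crypts. Their share did not overlap between the 3 groups in ileum, and overlapped between GFP cells and KO crypts in colon. In ileum GFP cells, KO crypts and WT crypts, Galnt12 averaged 22.1, 6.58 and 13.8% and Galnt7 20.1, 9.69 and 12.2%. Galnt10 went the other way, at 6.09, 10.9 and 9.28%, and Galnt4 averaged 14.8, 14.1 and 13.4%. No test was run on these sums and shares.

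**Figure D3:**
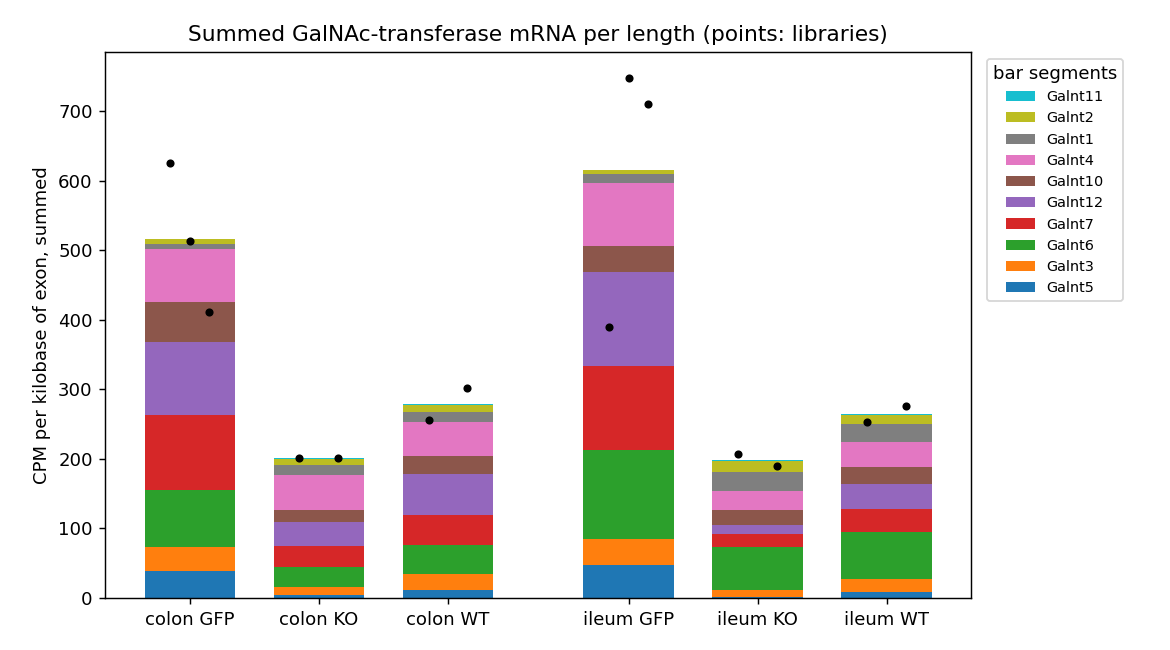
Mean CPM per kilobase of exon of each isoform, stacked by group, with points for the sum in each library. The GFP sums range from 390 to 748 and the crypt sums from 190 to 303, and the Galnt6 segment is the largest in ileum KO and WT crypts.

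Some isoforms were called as differing in mRNA level between colon and ileum crypts. In WT crypts Galnt4 and Galnt12 were higher in colon than in ileum, and Galnt1, Galnt2 and Galnt6 were lower, where 10.2% of 14415 genes were called higher and 9.71% lower. Galnt12 had a log2 fold of 0.68 in WT crypts, colon over ileum, at 134 ± 16.1 CPM in colon and 84.1 ± 12.9 CPM in ileum (SD, n = 2 each; edgeR adjusted p = 0.0212). Galnt4 had a log2 fold of 0.49 (edgeR adjusted p = 0.029). Galnt1 was 1.70-fold lower (edgeR adjusted p = 0.0049), Galnt6 1.61-fold lower (edgeR adjusted p = 0.013) and Galnt2 1.39-fold lower (edgeR adjusted p = 0.0359). With all 14 libraries in the fit 0 of these 5 were called (edgeR adjusted p = 0.0528 to 0.333). Galnt2 was not called without any 1 of the 4 WT libraries, Galnt4 without colon WT 1, colon WT 2 or ileum WT 1, Galnt6 without colon WT 1 and Galnt12 without colon WT 2.

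In KO crypts 8 of the 10 isoforms differed between tissues, while 13.1% of all genes tested were called higher in colon and 12.6% lower. Galnt5 was 5.67-fold higher in colon KO crypts, at 19.6 ± 0.488 CPM in colon and 3.38 ± 0.416 CPM in ileum (SD, n = 2 each; edgeR adjusted p = 0.00422). Galnt12 was 2.57-fold, Galnt4 1.79-fold and Galnt7 1.53-fold higher in colon KO crypts (edgeR adjusted p = 0.00123, 0.00279 and 0.0257). Galnt6 was 2.19-fold, Galnt2 1.94-fold, Galnt1 1.93-fold and Galnt10 1.31-fold lower (edgeR adjusted p = 0.0015, 0.00188, 0.00161 and 0.0489). Galnt7 and Galnt10 were not called without any 1 of the 4 KO libraries, or with all 14 libraries in the fit (edgeR adjusted p = 0.147 and 0.521). Galnt10 was also not called with DESeq2 (adjusted p = 0.0739), its size factors, scaling without genes above 1% of counts or no filter, in all 9 of 13 alternatives.

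In GFP cells 1 of 10 isoforms differed between tissues, where 12.6% of genes were called higher in colon and 10.2% lower. Galnt1 was 1.93-fold lower in colon GFP cells, at 40.0 ± 13.7 CPM in colon and 77.4 ± 10.4 CPM in ileum (SD, n = 3 each; edgeR adjusted p = 0.00491). Galnt6 had a log2 fold of −0.63 (edgeR adjusted p = 0.102), which passed without ileum GFP 1 (log2 fold −0.95, edgeR adjusted p = 0.000692). Galnt5, Galnt7 and Galnt12 had log2 folds of −0.30, −0.17 and −0.35 in GFP cells, colon over ileum (edgeR adjusted p = 0.536, 0.63 and 0.31), and their colon and ileum GFP libraries overlapped. Galnt10 and Galnt2 had log2 folds of 0.57 and 0.51 (edgeR adjusted p = 0.109 and 0.0754), with all colon GFP libraries above all ileum ones. Galnt10 passed with no filter (0.0454) and without ileum GFP 3 (0.0478), and Galnt2 without ileum GFP 2 (0.0484), all edgeR adjusted p.

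**Figure D4:**
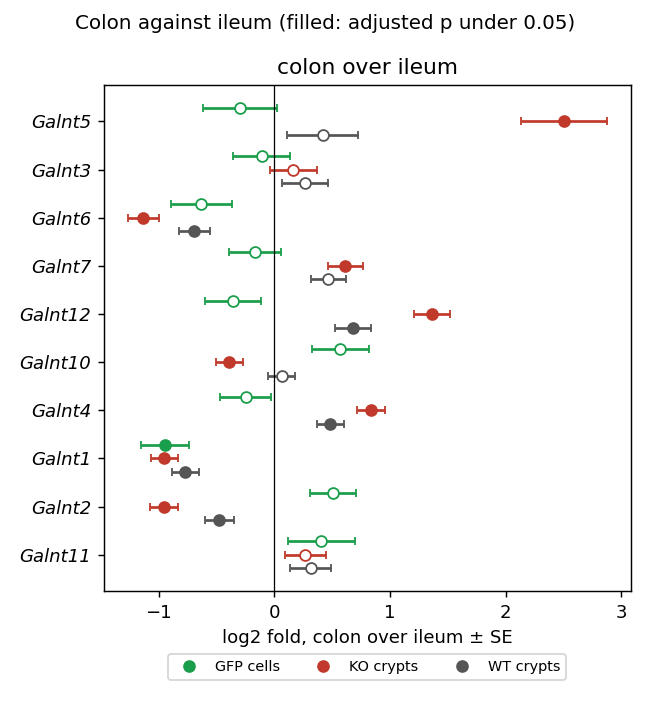
Log2 folds of colon over ileum (points) with SE (bars) for GFP cells, KO crypts and WT crypts, with filled points for an adjusted p under 0.05. Galnt1 is lower in colon in all 3 populations, and Galnt5 stands furthest from 0 in KO crypts, at 2.50.

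Other genes of the pathway were followed as lists. The acceptor list holds mucins and other mucus genes, and a place on it does not show that the protein carries O-glycans. Of its genes, Muc2, Tff3, Clca1, Fcgbp, Zg16 and Agr2 are also goblet markers above. Muc2, the gel-forming mucin of goblet cells, stood at 34340, 33870 and 30820 CPM in colon GFP cells. It stood at 187 and 281 CPM in colon KO crypts and 571 and 1568 CPM in colon WT crypts. In ileum Muc2 stood at 8232, 22030 and 20310 CPM in GFP cells, 32.8 and 9.55 CPM in KO crypts and 283 and 541 CPM in WT crypts. GFP cells had 30.9-fold more Muc2 than WT crypts in colon and 40.9-fold more in ileum (edgeR adjusted p = 0.000107 and 5.05e-05), whereas the 10 isoforms were at most 5.18-fold higher. Of the 13 genes tested from this list, 7 rose and 1 fell in GFP cells in each tissue. Over all genes, 22.3 and 24.6% were called higher in colon and ileum. Agr2, which helps MUC2 fold in the endoplasmic reticulum, was 12.1-fold and 17.6-fold higher (edgeR adjusted p = 2.62e-05 and 7.52e-06). Muc3, a membrane mucin of enterocytes, was the gene that fell, 4.76-fold and 10.2-fold (edgeR adjusted p = 0.00049 and 2.15e-05). Muc2 itself did not pass in KO against WT crypts (edgeR adjusted p = 0.533 in colon and 0.0884 in ileum). In KO crypts 1 of 11 genes tested from this list fell in colon (Tff3) and 3 in ileum (Clca1, Tff3 and Agr2). These are goblet markers, and none of the mucin genes tested was called.

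The sugar donor list covers the synthesis and transport of UDP-GalNAc and CMP-sialic acid. In GFP cells 6 of its 16 genes rose and 2 fell in colon, and 7 rose and 2 fell in ileum, with medians of 0.15 and 0.42 on the log2 scale. Over all genes tested, 22.3% were called higher and 23.6% lower in colon, and 24.6% higher and 28.1% lower in ileum. Gfpt1, which catalyses the first step of the hexosamine pathway, was 2.59-fold higher in colon and 2.79-fold higher in ileum (edgeR adjusted p = 0.00144 and 0.00068). Slc35a1, the CMP-sialic acid transporter of the Golgi, was 3.80-fold and 4.68-fold higher (edgeR adjusted p = 0.000115 and 3.14e-05). In KO crypts 0 of the 16 passed in either tissue with edgeR. Gfpt1 averaged 1159 CPM in KO and 1320 CPM in WT crypts of colon, and 668 and 699 CPM in those of ileum.

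Of 24 genes tested that build the core or extend and cap the chain, 11 rose and 2 fell in colon GFP cells, and 8 rose and 5 fell in ileum GFP cells, against WT crypts, beside the same shares over all genes. C1galt1, the core 1 synthase that acts on the sugar added by the GalNAc-transferases, was 2.31-fold higher in colon and 2.86-fold higher in ileum (edgeR adjusted p = 0.00382 and 0.000724). Its chaperone C1galt1c1 was 4.44-fold and 5.24-fold higher (edgeR adjusted p = 0.000256 and 9.37e-05). The sialyltransferase St3gal4 fell 4.18-fold and 13.2-fold (edgeR adjusted p = 4.33e-06 and 3.53e-08). In ileum KO crypts 2 fell, the fucosyltransferases Fut1 and Fut2, and 0 of 24 were called in colon KO crypts. The other family genes counted, 8 in all, reached at most 2.12 CPM in any library, and 1 of them (Galnt18) passed the filter for testing. Galnt18 was not called in KO or GFP comparisons with WT crypts; it was called higher in colon than ileum GFP cells, where all 3 ileum libraries had 0 counts (edgeR adjusted p = 0.0305).

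Genes whose pattern over the 14 libraries was most like that of an isoform were ranked by the root mean square difference of centred log2 levels, among 10065 genes that reached a mean of 10 CPM in at least 1 group. Closest to Galnt5 were Slc2a10, a facilitative sugar transporter, Chrm1, a muscarinic acetylcholine receptor, and Kdelr3, a receptor that returns proteins to the endoplasmic reticulum (differences of 0.316, 0.324 and 0.350 on the log2 scale, beside a median of 2.03 over all genes). Closest to Galnt7 were Tmf1, Dnajc10, a reductase of the endoplasmic reticulum, and Arhgef38 (0.196 to 0.207). Closest to Galnt12 were Ica1, Rassf6 and Dnajc10 (0.167 to 0.293). Closest to Galnt6 were Creld2, Tmed4 and Ssr2, genes of the early secretory pathway (0.210 to 0.232), and closest to Galnt2 were Acy1, Lrp5 and Pi4k2a (0.138 to 0.181). Galnt3 was closest to Tpd52, Edem3 and Tbc1d30, Galnt4 to Ampd3, Golgb1 and Erlec1, and Galnt10 to Tmem106c, Pomt2 and Tmem97. Galnt1 was closest to Ftsj3, Atp2a2 and Fam13b, and Galnt11 to Zfp821, Htatip2 and Tbc1d17. The ranking uses 14 libraries in 6 groups, so it follows mostly the differences between groups.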

How the data were processed

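Crypt and sorted-cell RNA was sequenced; TopHat 1.4.1, HTSeq and build mm9 are named in the submitters' processing notes. The sources used here do not give strand setting or annotation release. Each library has 1 deposited table of counts per Ensembl gene, not normalized. HTSeq's lines for reads assigned to no gene were left out (no feature: 9.30 to 52.3% of uniquely placed reads, ambiguous: 0.490 to 1.24% of all lines).

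Symbols, lengths and overlaps came from GENCODE M21 by Ensembl ID (31004 genes matched), which is of another build than the counts, so coordinates are given only for the RefSeq promoter windows, in GRCm38.p6. Counts were tested with edgeR 4.0.16 in R 4.3.3 (glmQLFTest, TMM, filterByExpr, robust, Benjamini-Hochberg, threshold 0.05). Crypt comparisons used the 8 crypt libraries (14415 genes) and comparisons with GFP cells all 14 (15274 genes). All 10 isoforms passed the filter in both fits. On simulated counts with known changes, 80% of changes of 1.5 on the log2 scale were recovered for colon KO against WT, over 14322 genes, and 90% for colon GFP against WT, over 15158 genes. Of the calls, 6.28 and 4.52% were false. Otherwise the simulation gave each gene 1 mean in all groups and the fitted dispersion alone, with 100 genes changed at each size. These shares are therefore not the power of the real comparisons. Alternatives were DESeq2 1.42.0, its size factors within edgeR, scaling that leaves out genes above 1% of counts or mitochondrial genes, no filter, the replicate number as a block, other sets of libraries, and leaving out each library. No batch is given in the labels. No replicates were duplicates, since chi-square values per gene ran from 10.3 to 84.8. Isoforms were named in full; of other genes, up to 4 called members per list by size of change, up to 2 uncalled ones by mean CPM, Muc2, Atoh1, and the 3 genes nearest in pattern. C1galt1, Muc3, Galnt18 and Agr2 in ileum were named after their values were seen. The isoforms and lists were chosen with earlier results of these data known.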

Additional observations from a re-analysis of the deposited data

How the results depend on the processing

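The scaling alternatives left the counts of isoforms called within 1.5 times of those reported, and over 120 recomputed group levels the largest change was 1.09%. With DESeq2 the isoforms called numbered 4 for KO against WT crypts in colon (0 with edgeR) and 4 in ileum (2 with edgeR). They numbered 1 for the difference of the knockout effect between tissues (0) and 1 for the difference of the GFP effect (0). Over all genes, DESeq2 called 157, 511, 56 and 800 in these comparisons, against 22, 176, 1 and 335 with edgeR. With the compared groups alone in the fit, the isoforms called numbered 2 for the knockout in colon and 0 in ileum, beside 102 and 4 of all genes. For colon against ileum WT crypts they numbered 1 (5 as reported), beside 1213 of all genes. That comparison gave 0 with all 14 libraries, beside 1836 of all genes. With no filter the isoforms called numbered 3 for colon against ileum GFP cells (1) and 2 for the difference of the GFP effect, beside 3861 and 1093 of all genes. Leaving out 1 library at a time changed the number of isoforms called for the knockout in ileum and for its difference between tissues. The number also changed for colon against ileum WT crypts, GFP cells against WT crypts in colon and the difference of the GFP effect. Without a crypt library, 1 library is left in its group. For colon against ileum GFP cells, where 2 libraries are left in the group, 1 to 2 isoforms were called, beside 2416 to 3961 of all genes. Calls over all genes also changed in number when 1 library was left out. The cause was not tested.

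With the replicate number as a block 2 isoforms were called for colon against ileum GFP cells (1 without it) and 3 for the knockout in ileum. For GFP cells against WT crypts, 7 were called in ileum (Galnt6 and Galnt11 were lost) and 6 in colon. Over all genes, the block gave 3689, 201, 8015 and 6823 calls in the same order of comparisons. Without it there were 3474, 176, 8058 and 7007. The labels do not say what the number marks, and same-numbered KO and WT libraries did not deviate together (r over genes of −0.01 in colon and 0.06 in ileum). Same-numbered colon and ileum crypt libraries did (0.33 in KO, 0.29 in WT). A block by genotype and number, chosen after seeing the data, called 6 isoforms in WT and 8 in KO crypts. Over all genes it called 3230 and 4058, against 2872 and 3699 without a block. For colon against ileum WT crypts, the block by number lost Galnt2 (edgeR adjusted p = 0.0507) and gained Galnt7 (0.0361, and 0.022 by genotype and number). For GFP cells it gained Galnt10 (0.0455).

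Signs of values not called changed when 1 library was left out, on the log2 scale, as follows. For KO against WT the ranges were −0.0222 to 0.0899 for Galnt4 and −0.23 to 0.11 for Galnt11 in colon, and −0.0528 to 0.233 for Galnt1, −0.192 to 0.00738 for Galnt6 and −0.12 to 0.13 for Galnt11 in ileum, where Galnt11 was 0.0010 with no filter. For the difference of the knockout effect they were −0.35 to 0.11 for Galnt3, −0.0094 to 0.326 for Galnt7 and −0.23 to 0.11 for Galnt11. For colon against ileum they were −0.364 to 0.0684 for Galnt3 and −0.394 to 0.0264 for Galnt7 in GFP cells and −0.0605 to 0.2 for Galnt10 in WT crypts. For the difference of the GFP effect they were −0.44 to 0.0598 for Galnt1, −0.25 to 0.32 for Galnt6 and −0.14 to 0.50 for Galnt11. Called isoforms kept their sign under each alternative.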

Other observations

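The doubled E-box of the Galnt5 promoter window was chosen after its letters were seen, and was then counted in all promoter windows of this length. CAGCTGCAGCTG stood in 17 of 32851 windows (0.0517%), on 15 of 27025 genes, the Galnt5 window being among them. Any fixed string of this length is found in few windows, so the count does not set the Galnt5 window apart. Binding of ATOH1 was not measured in these libraries.

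Galnt3 averaged 97.9 CPM in colon and 82.3 CPM in ileum WT crypts (log2 fold 0.26, edgeR adjusted p = 0.408), while Galnt6 averaged 160 and 260 CPM (log2 fold −0.69, edgeR adjusted p = 0.013). In ileum, Galnt6 averaged 238 CPM in KO and 260 CPM in WT crypts, and Galnt3 45.7 and 82.3 CPM. Whether the 2 genes differ from each other in these comparisons was not tested.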
